A study of Homo sapiens with 12 samples.

Results

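Transcripts of glycolysis and pyruvate metabolism, 31 measured genes of a list of 35 symbols and of 10330 genes measured in all, were examined in A375, an established human melanoma cell line, after treatment with ciclopirox or crizotinib. Glycolysis splits glucose into pyruvate in the cytosol through a chain of enzymes, most of which exist as several isoenzymes coded by separate genes. Pyruvate is then either reduced to lactate, which leaves the cell, or carried into mitochondria and oxidised by the pyruvate dehydrogenase complex, which kinases switch off and phosphatases switch on. Tumour cells, melanoma cells among them, often run glycolysis fast and release lactate even where oxygen is present, and many of these genes are known targets of the hypoxia-inducible factors (HIF). Ciclopirox is an antifungal that binds iron, and crizotinib is an inhibitor of receptor tyrosine kinases such as MET and ALK.

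The list covers glucose and lactate transporters, the glycolytic enzymes, the PFKFB regulators, the lactate dehydrogenases and the control, subunits and carrier of pyruvate oxidation. The 31 measured genes were read by 45 of the 16563 probes that passed the filter, a detection p-value below 0.01 on 2 or more of the 12 arrays. SLC2A3, SLC16A1 and SLC16A3 had no probe paired with them in the annotation used here, and the 1 probe of PDK1 did not pass. Where a gene had several probes it was counted by its brightest, and 11 of the 31 genes had more than 1. The study put 12 Illumina bead arrays of total RNA into 5 groups, namely ciclopirox for 8 h (3 arrays), ciclopirox for 24 h (2), crizotinib for 8 h (3), crizotinib for 24 h (2) and control (2). Each drug was given at the concentration that inhibited 75% in an earlier assay at 72 h, the controls received the vehicle DMSO, and all cells grew in RPMI medium with fetal bovine serum. The controls carry no time of their own, so the 8 h and 24 h arrays of both drugs were set against the same 2 controls, and the 4 comparisons with control share them. The labels number the replicates without saying that they were separate cultures, so p-values measure the spread between arrays of 1 cell line, which may be technical, and 2 or 3 arrays a group limit the precision. By their descriptions all arrays lay on 1 chip with the groups in blocks. Those descriptions disagree with the names used below, so the position of each analysed array is not settled, and its part in the results was not tested.

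The sample names of the deposited tables disagree. Of the 12 columns of the normalized value table, 2, both controls, followed most closely the scanner column that their own description names. Under the value table's names 12 of 12 arrays correlated best with another array of the same group, against 7 of 12 under the descriptions. The results below use the value table and its names. Fitted on the scanner signals with the descriptions' names instead, of the 65 calls made on these genes over the 9 comparisons 2 were kept, 39 were lost with the same sign and 24 had the opposite sign. That fit, called the descriptions' fit below, changed both the signals and the names, and neither change was run alone. Of 12 markers of melanocytic and of dedifferentiated melanoma cells 4 were measured, namely SOX10, SOX9 and MITF, transcription factors of the lineage, and AXL, a receptor kinase known from dedifferentiated melanoma cells, while MLANA, PMEL, TYR, TYRP1, DCT, S100B, S100A1 and NGFR gave no probe that passed. No keratinocyte or endothelial marker was measured.

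Values below are the authors' normalized intensities on a linear scale. Where all arrays of a group are said to lie above or below others, the share of all genes so placed is not given here. Differences are on the log2 scale with their standard error (SE), and a gene was called where the adjusted p of limma (Benjamini-Hochberg over all 16563 probes) was under 0.05. Wherever a call is said to be kept or lost without an array, only arrays of the groups in that comparison were left out, 1 at a time. In a group of 2 arrays such a fit leaves 1. Intensities of different probes are not compared with each other, and in bulk RNA fewer cells with a transcript and less of it per cell cannot be told apart. Of the 31 genes, 27 were above background, an intensity of 40.3, on every array. The exceptions were PFKFB2, PDK2, PDK4 and PDP1. Transcripts of GAPDH, ENO1, LDHA, PGK1, TPI1 and PGAM1 have near-identical copies elsewhere in the genome, so their probes may read more than 1 locus.

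HIF proteins bind a short core in DNA, ACGTG or GCGTG, and the sequence CACGTG is also bound by MYC and related factors. The promoters of the genes with the widest movements below, HK2, PFKFB4, ALDOC and ENO2, are shown with that of ENO1, the isoenzyme of ENO2 that was called in no comparison. Each is a 300-base window, 250 bases before to 50 after a RefSeq transcription start on GRCh38.p14, written 5′ to 3′ on the gene's own strand. Capitals mark every ACGTG or GCGTG on either strand, so that CACGT and CACGC are their reverse complements, and CACGTG counts on both strands because ACGTG overlaps its own complement there. The windows lie at chr2:74833877-74834176 and chr2:74834920-74835219 on the plus strand for the first and second start of HK2, at chr3:48556754-48557053 on the minus strand for PFKFB4, at chr17:28576846-28577145 on the minus strand for ALDOC, at chr12:6914330-6914629 on the plus strand for ENO2 and at chr1:8878637-8878936 on the minus strand for ENO1.
HK2 start 1: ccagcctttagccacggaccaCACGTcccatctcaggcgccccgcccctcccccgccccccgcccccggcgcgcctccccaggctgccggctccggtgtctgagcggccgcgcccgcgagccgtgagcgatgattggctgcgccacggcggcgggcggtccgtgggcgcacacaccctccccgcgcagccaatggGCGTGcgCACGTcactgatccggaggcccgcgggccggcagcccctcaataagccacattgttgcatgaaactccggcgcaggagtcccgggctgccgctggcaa
HK2 start 2: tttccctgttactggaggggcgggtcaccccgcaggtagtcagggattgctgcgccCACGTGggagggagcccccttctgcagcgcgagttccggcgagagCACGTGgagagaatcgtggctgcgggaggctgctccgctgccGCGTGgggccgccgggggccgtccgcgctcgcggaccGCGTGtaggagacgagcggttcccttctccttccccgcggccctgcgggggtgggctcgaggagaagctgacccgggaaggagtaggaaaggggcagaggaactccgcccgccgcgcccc
PFKFB4: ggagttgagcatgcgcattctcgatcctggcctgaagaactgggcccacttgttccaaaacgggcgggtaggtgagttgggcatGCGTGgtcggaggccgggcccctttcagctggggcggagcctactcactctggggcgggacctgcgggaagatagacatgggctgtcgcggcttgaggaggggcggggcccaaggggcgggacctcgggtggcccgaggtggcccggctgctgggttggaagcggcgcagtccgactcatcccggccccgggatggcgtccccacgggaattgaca
ALDOC: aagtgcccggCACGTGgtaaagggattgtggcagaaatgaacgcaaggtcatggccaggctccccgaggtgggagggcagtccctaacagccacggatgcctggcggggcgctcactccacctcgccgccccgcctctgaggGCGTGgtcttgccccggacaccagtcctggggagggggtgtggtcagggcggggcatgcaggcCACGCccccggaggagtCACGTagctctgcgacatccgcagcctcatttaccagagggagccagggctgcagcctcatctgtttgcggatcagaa
ENO1: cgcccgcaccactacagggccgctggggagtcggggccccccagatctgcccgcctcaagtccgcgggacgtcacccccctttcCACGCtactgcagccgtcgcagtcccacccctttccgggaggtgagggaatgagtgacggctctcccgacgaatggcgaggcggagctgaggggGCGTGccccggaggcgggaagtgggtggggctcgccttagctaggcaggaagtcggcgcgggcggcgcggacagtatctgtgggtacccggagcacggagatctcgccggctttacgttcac
ENO2: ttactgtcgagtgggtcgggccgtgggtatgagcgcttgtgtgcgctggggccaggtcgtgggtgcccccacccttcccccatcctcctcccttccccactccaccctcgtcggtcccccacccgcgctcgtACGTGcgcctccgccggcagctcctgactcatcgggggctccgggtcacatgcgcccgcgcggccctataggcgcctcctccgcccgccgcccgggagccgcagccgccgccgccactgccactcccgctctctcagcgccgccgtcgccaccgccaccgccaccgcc

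RefSeq promoters were found for 31 of the 35 listed genes, with 62 windows over all their starts. ACGTG or GCGTG was present in 64.5% of these windows, against 48.4% of all 35116 promoters of the same length. CACGTG was present in 12.9% of the genes' windows, against 7.26% of all promoters. The second HK2 window holds 4 ACGTG and 2 GCGTG matches with CACGTG at 2 places, and the ALDOC window holds 3 and 2. The ENO2 window holds 1 ACGTG and that of PFKFB4 1 GCGTG, while the window of ENO1 holds 2 GCGTG. A match is a description of the letters only, since no binding was measured.

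**Figure D1:**
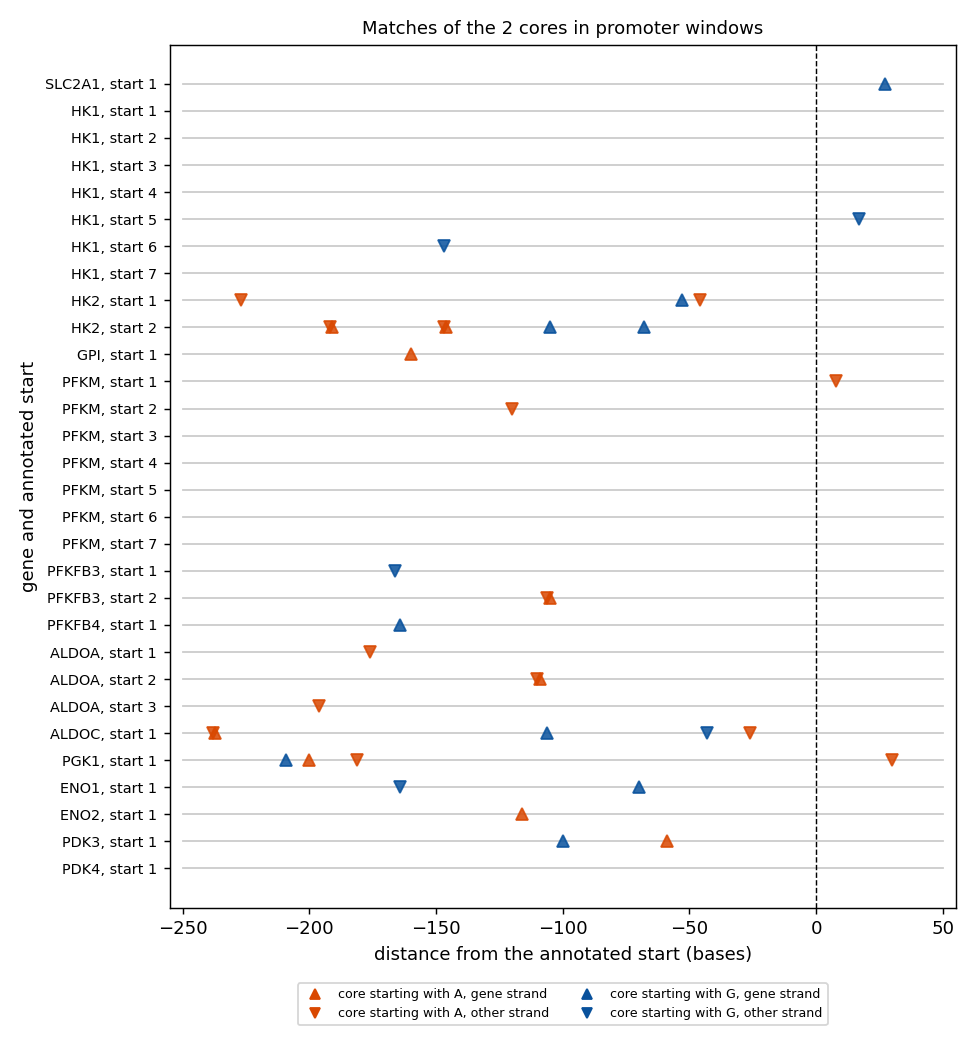
Distance in bases from the annotated transcription start, on the horizontal axis, of each ACGTG (orange) or GCGTG (blue) in the promoter windows of the 11 genes described in full and of their isoenzymes HK1, ALDOA and ENO1, 1 row per start, with the triangle's direction giving the strand. The second start of HK2 carries 4 and 2 matches and the start of ALDOC 3 and 2, while ENO1, called in no comparison, carries 2.

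After 8 h of ciclopirox, 6 of the 31 genes were called higher and 1 lower than in control cells, 22.6% against 8.72% of all 10330 genes measured. Of all genes 3.29% were called higher and 5.43% lower. The genes called higher were HK2, SLC2A1, PFKFB4, PFKP, ALDOC and ENO2, and the one called lower was PDK4. After 24 h of ciclopirox, 6 were called higher (ALDOC, ENO2, GPI, HK2, PGK1 and ALDOA) and none lower (2 at an unadjusted p under 0.05), 19.4% against 7.63% of all genes, of which 4.13% were called higher and 3.49% lower. After 8 h of crizotinib none was called higher (1 at an unadjusted p under 0.05) and PFKFB3, PDK3 and PFKFB4 were called lower, 9.68% against 7.58% of all genes, a share near the background, with 3.45% of all genes called higher and 4.13% lower. After 24 h of crizotinib 4 were called higher (ALDOC, ENO2, PFKM and PFKFB4) and 3 lower (PFKFB3, SLC2A1 and DLAT), 22.6% against 28.3% of all genes (14.2% higher and 14.1% lower), again no larger than the background. The median log2 difference over the 31 genes was 0.036 and 0.064 after 8 h and 24 h of ciclopirox and -0.082 and -0.053 after 8 h and 24 h of crizotinib, against medians of -0.020, -3e-04, -0.028 and 0.0054 over all genes. In all, 14 of the 31 genes were called in at least 1 comparison with control and 17 in none of them. With any 1 array of the groups compared left out, fewer of these genes were called after 8 h and 24 h of ciclopirox. The ranges for all 4 comparisons are given further below, beside those of all genes. Fitted on only the groups compared, the counts of these genes called were 3 after 8 h of ciclopirox and 1 each after 24 h of ciclopirox and 8 h of crizotinib. Those of all genes were 352, 59 and 64 there, in the same order. In the descriptions' fit, limma called 1 of these genes (ENO2) after 8 h of ciclopirox and 0 after 24 h of ciclopirox, 8 h of crizotinib and 24 h of crizotinib, where 5, 2 and 6 had an unadjusted p under 0.05. Of all genes it called 143 after 8 h of ciclopirox and 0 in the other comparisons with control.

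**Figure D2:**
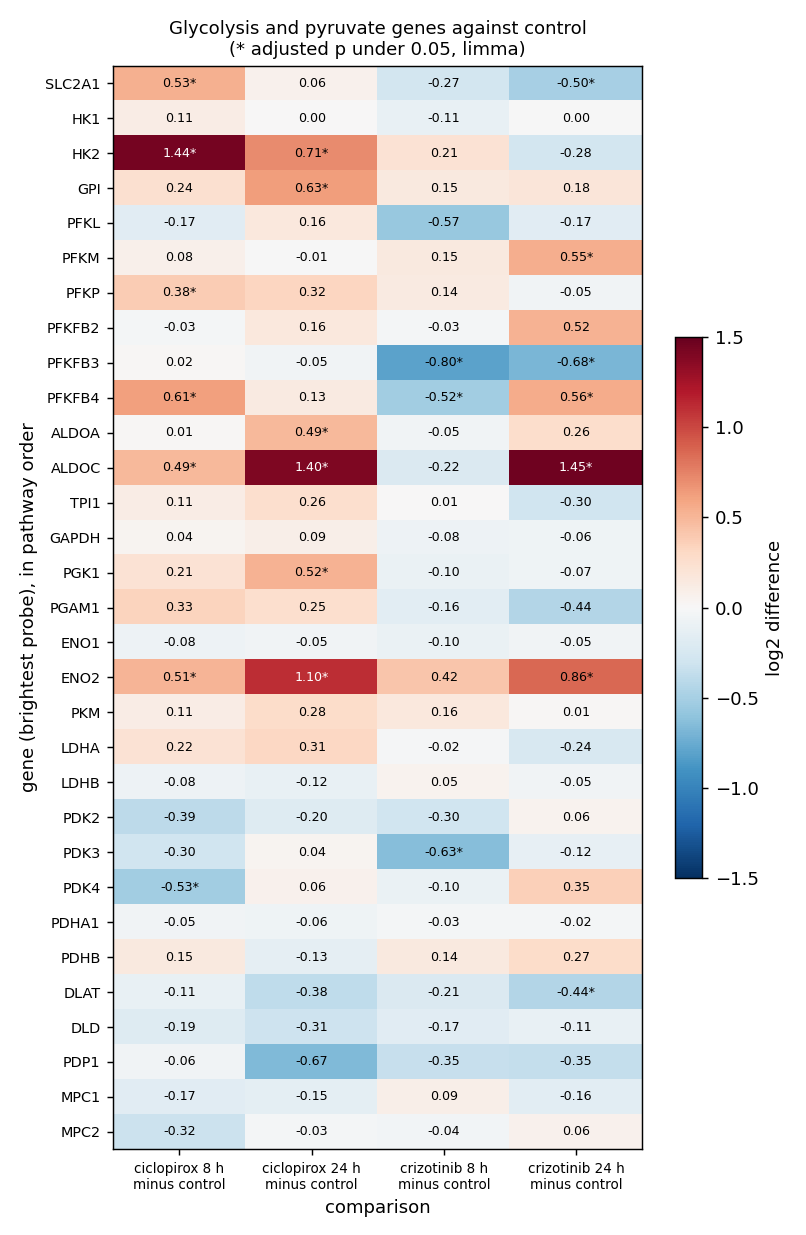
Log2 difference from control of each of the 31 measured genes (rows, in pathway order) in the 4 comparisons with control (columns), printed in each cell and coloured from -1.5 (blue) to 1.5 (red), with a star where the adjusted p of limma was under 0.05. HK2 after 8 h of ciclopirox (1.44) and ALDOC after 24 h of ciclopirox (1.40) and of crizotinib (1.45) are the darkest cells, while the rows of GAPDH, ENO1 and PKM have no star. The cells of PFKFB2, PDK2, PDK4 and PDP1 include arrays below background and are fitted values, not bounds.

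SLC2A1 codes for GLUT1, the transporter that brings glucose into most cells. Its intensity was 4449, 4467 and 4474 after 8 h of ciclopirox, 3242 and 3216 after 24 h of ciclopirox, 2487, 2414 and 2788 after 8 h of crizotinib and 2163 and 2200.1 after 24 h of crizotinib, against 3052 and 3125 in control. The 8 h ciclopirox arrays were the highest of all and the 24 h crizotinib arrays the lowest, with no overlap with control. The 24 h ciclopirox arrays also lay above both controls, and the 8 h crizotinib arrays below them. SLC2A1 rose after 8 h of ciclopirox by 0.53 ± 0.085 (adjusted p = 0.0069), a call lost without control replicate 1 (adjusted p up to 0.0623). At 24 h of ciclopirox the difference was 0.064 and not called. After 24 h of crizotinib SLC2A1 fell by 0.50 ± 0.093 (adjusted p = 0.0033), while the 8 h difference of -0.27 was not called (adjusted p = 0.0781).

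HK2 codes for hexokinase 2, the inducible enzyme that phosphorylates glucose and traps it in the cell. Its intensity was 1389, 1612 and 1518 after 8 h of ciclopirox, 869.7 and 945 after 24 h of ciclopirox, 616, 674 and 642 after 8 h of crizotinib and 485 and 429.6 after 24 h of crizotinib, against 531 and 579 in control. Every ciclopirox array and every 8 h crizotinib array was above both controls, and every 24 h crizotinib array was below them. HK2 rose after 8 h of ciclopirox by 1.44 ± 0.10 (adjusted p = 0.000142), 2.71-fold, and after 24 h by 0.71 ± 0.11 (adjusted p = 0.00511), 1.64-fold, and kept both calls whichever array was left out. The crizotinib differences, 0.21 at 8 h and -0.28 at 24 h, were not called. A second, dimmer HK2 probe gave 0.88 at 8 h of ciclopirox, not called. HK1, the hexokinase that most cells express at all times, was called in no comparison and averaged 5044 ± 554 after 8 h of ciclopirox, against 4658 ± 68.8 in control (SD, n = 3 and 2).

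GPI codes for the isomerase that turns glucose phosphate into fructose phosphate, and is also secreted as a cytokine. Its intensity was 3006 and 3015 after 24 h of ciclopirox, against 1830.3 and 2064 in control, and GPI rose by 0.63 ± 0.098 (adjusted p = 0.00501). It was not called after 8 h of ciclopirox (0.24) or under crizotinib (0.15 at 8 h and 0.18 at 24 h). The phosphofructokinases, which commit sugar to glycolysis, differed by isoenzyme in their calls. PFKM, the muscle form, had intensities of 1743 and 1916 after 24 h of crizotinib, against 1199 and 1301 in control, and rose by 0.55 ± 0.095 (adjusted p = 0.00218), while its differences in the other 3 comparisons with control lay between -0.011 and 0.15 and were not called. PFKP, the platelet form, rose after 8 h of ciclopirox by 0.38 ± 0.09 (adjusted p = 0.0329), but that call was lost without control replicate 1 or without any 1 of the 3 ciclopirox arrays (adjusted p up to 0.225). PFKL, the liver form, was called nowhere, with -0.57 after 8 h of crizotinib (adjusted p = 0.0692).

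The PFKFB enzymes make and remove the sugar bisphosphate that activates phosphofructokinase, and PFKFB3 is the form that favours its synthesis most. PFKFB3 had intensities of 1412, 1421 and 1441 after 8 h and 1513 and 1577 after 24 h of crizotinib, against 2276 and 2693 in control. All 5 crizotinib arrays lay below both controls, and PFKFB3 fell at 8 h by 0.80 ± 0.11 (adjusted p = 0.00411) and at 24 h by 0.68 ± 0.12 (adjusted p = 0.00213), calls that no left-out array removed. Ciclopirox arrays lay between 2285 and 2786, and its differences of 0.02 and -0.052 were not called. A second PFKFB3 probe gave -0.17 at 8 h and -0.28 at 24 h of crizotinib and was not called, so the probes of this gene differ.

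PFKFB4, another isoenzyme of this family, changed direction with drug and time. Its intensity was 1266, 1269.7 and 1272 after 8 h of ciclopirox, 956 and 863 after 24 h of ciclopirox, 565, 524 and 655 after 8 h of crizotinib and 1240.3 and 1201 after 24 h of crizotinib, against 838 and 821 in control. The 8 h ciclopirox and 24 h crizotinib arrays were high, the 8 h crizotinib arrays were low, and none of these overlapped with control. PFKFB4 rose by 0.61 ± 0.10 (adjusted p = 0.00803) at 8 h of ciclopirox and by 0.56 ± 0.11 (adjusted p = 0.00502) at 24 h of crizotinib, and fell by 0.52 ± 0.10 (adjusted p = 0.0181) at 8 h of crizotinib. The call at 24 h of crizotinib held whichever array was left out. The call at 8 h of ciclopirox was lost without either control (adjusted p up to 0.0606), and that at 8 h of crizotinib without either control or without crizotinib replicate 1 or 2 (adjusted p up to 0.11). PFKFB2 was above background on 4 of the 12 arrays and was not called against control.

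**Figure D3:**
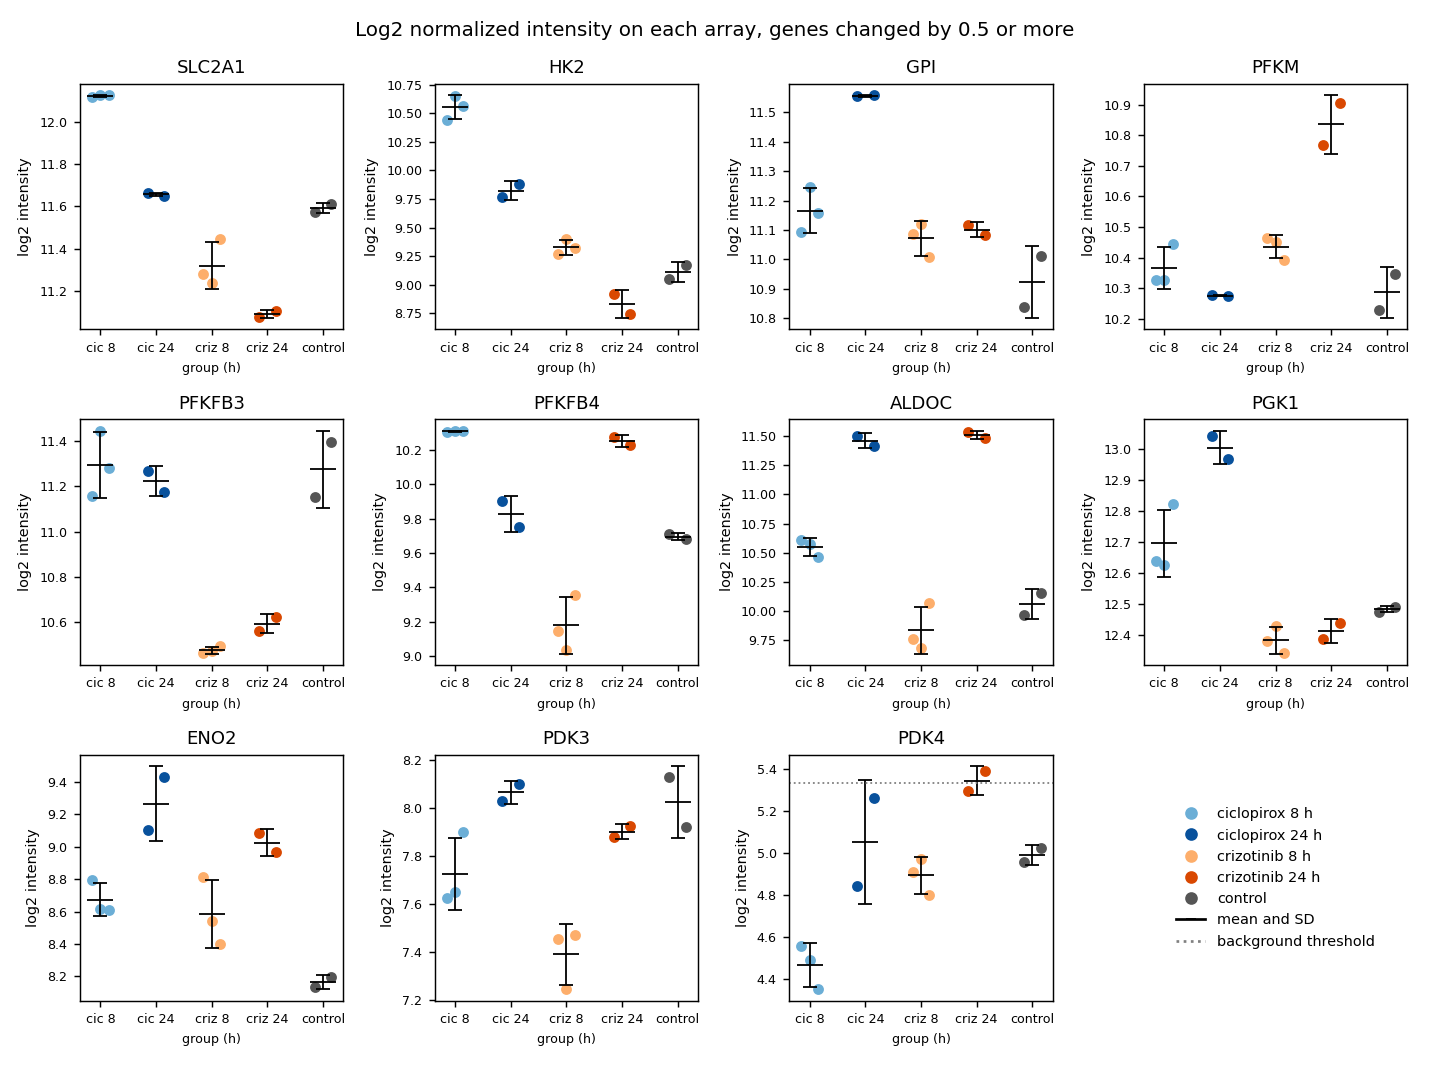
Log2 normalized intensity of the 11 genes called against control with a log2 difference of at least 0.5, 1 panel per gene with its own vertical axis and 1 point per array, with the mean and SD of each group (cic, ciclopirox; criz, crizotinib; hours beside them) and, for PDK4, the background threshold as a dotted line. ALDOC and ENO2 are high in both 24 h groups, HK2 is highest after 8 h of ciclopirox, and PFKFB3 is low in the 5 crizotinib arrays.

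Aldolase cleaves the sugar bisphosphate, and ALDOC codes for the form best known from brain. ALDOC intensities were 1558, 1528 and 1412 after 8 h of ciclopirox, 2906 and 2728 after 24 h of ciclopirox, 869, 821 and 1071 after 8 h of crizotinib and 2973 and 2874 after 24 h of crizotinib, against 1000.0 and 1137 in control. The arrays of both 24 h groups were above all others, and the 8 h ciclopirox arrays lay between them and control. ALDOC rose by 1.40 ± 0.13 (adjusted p = 0.000384) after 24 h of ciclopirox (2.64-fold) and by 1.45 ± 0.13 (adjusted p = 5.07e-05) after 24 h of crizotinib (2.74-fold), and kept both calls in every fit without 1 array. Its rise at 8 h of ciclopirox, 0.49 ± 0.12 (adjusted p = 0.0349), lost the call whichever of the 5 arrays was left out (adjusted p up to 0.213), and -0.22 at 8 h of crizotinib was not called. ALDOA, the widely expressed aldolase, rose by 0.49 ± 0.12 (adjusted p = 0.0344) after 24 h of ciclopirox, a call lost without control replicate 1 or without either ciclopirox array (adjusted p up to 0.191). TPI1, which interconverts the triose phosphates, was not called against control in any of the 4 comparisons, with 0.26 after 24 h of ciclopirox and -0.30 after 24 h of crizotinib.

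Lower glycolysis recovers ATP on the way to pyruvate. PGK1, phosphoglycerate kinase, had intensities of 8447 and 8007 after 24 h of ciclopirox, against 5700.2 and 5759 in control, and rose by 0.52 ± 0.096 (adjusted p = 0.012). That call was lost without either control or without ciclopirox replicate 1 (adjusted p up to 0.0665). At 24 h of crizotinib its difference was -0.07, not called. ENO2, the enolase best known from neurons, had intensities of 444, 393 and 391 after 8 h of ciclopirox, 550.3 and 689 after 24 h of ciclopirox, 449.8, 373 and 337 after 8 h of crizotinib and 543 and 500.2 after 24 h of crizotinib, against 280.5 and 293 in control. All 10 drug arrays lay above both controls. ENO2 rose by 1.10 ± 0.15 (adjusted p = 0.00276) after 24 h of ciclopirox and by 0.86 ± 0.15 (adjusted p = 0.00237) after 24 h of crizotinib, both kept in every fit without 1 array, and by 0.51 ± 0.14 (adjusted p = 0.0491) after 8 h of ciclopirox, lost whichever array was left out (adjusted p up to 0.213). Its difference at 8 h of crizotinib, 0.42, had an adjusted p of 0.0899. The housekeeping isoenzyme ENO1 was called nowhere, with differences from control between -0.095 and -0.049, and averaged 30355 ± 564 after 24 h of ciclopirox, against 31416 ± 180.1 in control (SD, n = 2 each). The ENO1 probe ranked 27 in brightness among the 16563 kept probes, and whether differences are compressed at such intensities was not tested. GAPDH, which oxidises the triose phosphate, lay between -0.082 and 0.086, and PKM, pyruvate kinase, between 0.014 and 0.28, neither called by its brightest probe. The other 2 PKM probes were above both controls on every ciclopirox array and on every 8 h crizotinib array. After 24 h of crizotinib they overlapped with control. For 1 probe the means after 8 h and 24 h of ciclopirox and 8 h of crizotinib were 1065, 1089 and 943, against 815 in control. For the other they were 585, 652 and 544, against 486. PGAM1, phosphoglycerate mutase, was not called against control by its brightest probe, at 0.33 after 8 h of ciclopirox and -0.44 after 24 h of crizotinib, where its other probe was called lower at -0.48.

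Neither lactate dehydrogenase was called against control by its brightest probe. LDHA, the subunit that favours lactate, differed by 0.31 after 24 h of ciclopirox (adjusted p = 0.07) and by -0.24 after 24 h of crizotinib (adjusted p = 0.0866). Its other 2 probes were called lower after 24 h of crizotinib, at -0.50 and -1.17, so LDHA is uncertain there. LDHB, the heart form, stayed between -0.12 and 0.05 in the 4 comparisons.

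The pyruvate dehydrogenase kinases block pyruvate oxidation. PDK3 had intensities of 175, 151 and 177 after 8 h of crizotinib, against 279.8 and 242 in control, and fell by 0.63 ± 0.12 (adjusted p = 0.0131). That call was lost without control replicate 1 (adjusted p up to 0.111), and a second PDK3 probe gave -0.23, not called. PDK4 had intensities of 23.5, 22.5 and 20.4 after 8 h of ciclopirox, against 31 and 32.5 in control, and was called lower (adjusted p = 0.0319). No array of either group was above background, so no size is given, and the call was lost whichever array was left out (adjusted p up to 0.142). PDK4 passed the filter with detection on 2 arrays, the fewest allowed, and its calls are counted in the shares given. PDK2 and the phosphatase PDP1, above background on 5 and 9 arrays, were called nowhere. Of the subunits of the complex, DLAT, its acetyltransferase, fell by 0.44 ± 0.12 (adjusted p = 0.022) after 24 h of crizotinib, a call lost whichever of the 4 arrays was left out (adjusted p up to 0.111). PDHA1, PDHB and DLD, the other subunits among the listed genes, and MPC1 and MPC2, which form the mitochondrial pyruvate carrier, were not called against control, with differences between -0.32 and 0.27.

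The drugs were compared with each other at each time. They differ in class and target, and their concentrations were matched by inhibition rather than by amount. All 31 genes were compared at both times, in the fit over all genes. At 8 h, 1 gene was called higher and 7 lower in crizotinib than in ciclopirox arrays, 25.8% against 8.07% of all genes, of which 4.18% were called higher and 3.89% lower. Crizotinib minus ciclopirox was -1.22 ± 0.09 (adjusted p = 4.91e-05) for HK2 and -1.13 ± 0.092 (adjusted p = 0.00012) for PFKFB4. It was -0.82 ± 0.095 (adjusted p = 0.0012) for PFKFB3, -0.80 ± 0.076 (adjusted p = 0.000404) for SLC2A1 and -0.71 ± 0.11 (adjusted p = 0.00416) for ALDOC. For these 5 genes the 3 crizotinib arrays all lay below the 3 ciclopirox arrays, and the call held without any 1 array. The arrays were placed likewise for PGK1 and PGAM1, and for PFKP, LDHA and PDK3, which were not called. PGK1 (-0.31), PGAM1 (-0.49) and PDK4 (adjusted p = 0.0462, with no array of either group above background and so no size) were called with all 6 arrays and lost without any 1 of them. In the descriptions' fit 2 of the genes were called in this comparison (ALDOC and ENO2), and 1963 of all genes.

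At 24 h, 3 genes were called higher and 9 lower in crizotinib than in ciclopirox arrays, 38.7% against 21.8% of all genes, of which 11.2% were called higher and 10.6% lower. Crizotinib minus ciclopirox was -0.99 ± 0.11 (adjusted p = 0.000214) for HK2, -0.57 ± 0.093 (adjusted p = 0.0022) for SLC2A1 and -0.63 ± 0.12 (adjusted p = 0.00436) for PFKFB3. It was -0.45 ± 0.098 (adjusted p = 0.009) for GPI, -0.59 ± 0.096 (adjusted p = 0.00209) for PGK1 and -0.56 ± 0.094 (adjusted p = 0.00265) for LDHA, and all 6 calls were kept without any 1 array. LDHA intensities were 15102 and 17019.6 in crizotinib arrays, against 23958 and 23183 in ciclopirox arrays. PGAM1 (-0.69), TPI1 (-0.56) and PFKP (-0.38) were also lower. The call on PGAM1 was lost without ciclopirox replicate 1 or crizotinib replicate 1, that on TPI1 without crizotinib replicate 1, and that on PFKP without ciclopirox replicate 2 or either crizotinib array. PFKM was higher by 0.56 ± 0.095 (adjusted p = 0.0026) and kept its call, while PFKFB4 (0.43) and PDHB (0.40) were higher and lost it without ciclopirox replicate 2 or either crizotinib array. ALDOC, raised in both drug groups, differed between the drugs by 0.054, with a 95% interval from -0.24 to 0.35, and ENO2 by -0.24, from -0.57 to 0.094. Neither was called, which does not show that the drugs act alike on them. In the descriptions' fit limma called 0 of the genes at 24 h, and 9 had an unadjusted p under 0.05.

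**Figure D4:**
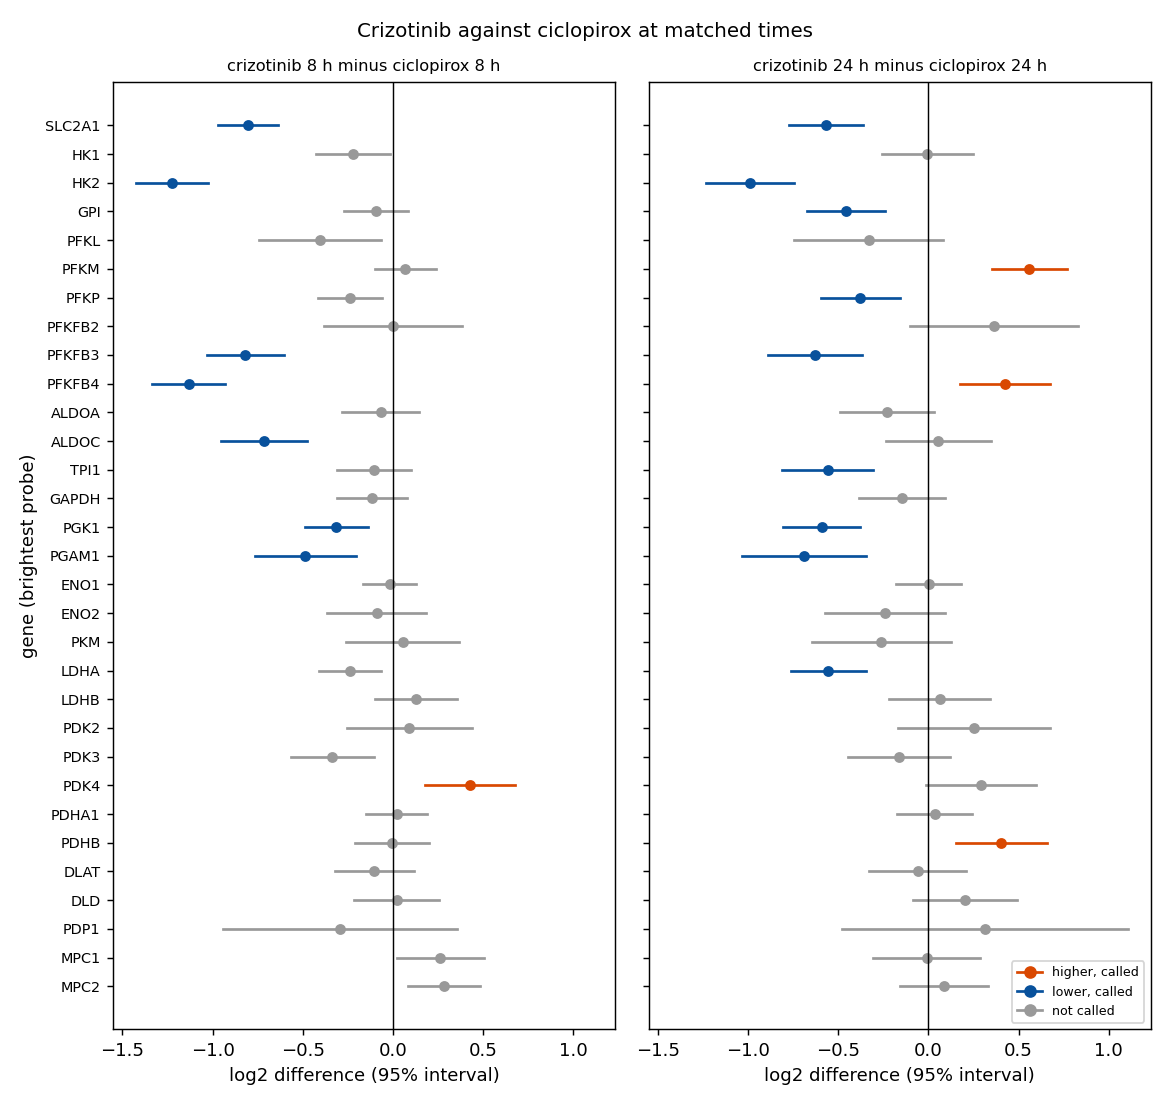
Log2 difference, crizotinib minus ciclopirox, of each of the 31 genes at 8 h (left) and 24 h (right), with its 95% interval, coloured by call (red higher, blue lower, grey not called). SLC2A1, HK2, PFKFB3, PGK1 and PGAM1 are lower at both times, and PFKFB4 is lower at 8 h (-1.13) and higher at 24 h (0.43).

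From 8 h to 24 h, 6 genes were called higher and 3 lower at 24 h than at 8 h of ciclopirox, 29% against 18.2% of all genes, of which 10.9% were called higher and 7.28% lower. ALDOC was higher at 24 h by 0.91 ± 0.12 (adjusted p = 0.00125), and HK2 and SLC2A1 were lower, with differences of -0.73 ± 0.10 (adjusted p = 0.0015) and -0.47 ± 0.085 (adjusted p = 0.00568). All 3 calls were kept without any 1 array. ENO2 (0.59), ALDOA (0.48), GPI (0.39), PGK1 (0.31) and PDK4 (adjusted p = 0.012, with no array of either group above background and so no size) were higher and PFKFB4 (-0.48) lower. ALDOA lost its call without 24 h replicate 1, PFKFB4 and PDK4 without 24 h replicate 2, ENO2 without 8 h replicate 3 or 24 h replicate 2, GPI without 8 h replicate 1 or either 24 h array, and PGK1 without 8 h replicate 1 or 2 or either 24 h array, with adjusted p up to 0.103, 0.0825, 0.0894, 0.131, 0.0718 and 0.171 in the order ALDOA, PFKFB4, PDK4, ENO2, GPI and PGK1. Under crizotinib 8 genes were called higher and 2 lower at 24 h than at 8 h, 32.3% against 36.3% of all genes, a share near the background. Of all genes 20% were called higher and 16.3% lower there. ALDOC was higher at 24 h by 1.68 ± 0.12 (adjusted p = 9.46e-06) and PFKFB4 by 1.08 ± 0.10 (adjusted p = 4.42e-05), PDK3 by 0.51 ± 0.12 (adjusted p = 0.00699), and HK2 was lower, with a difference of -0.50 ± 0.10 (adjusted p = 0.00391). These 4 calls were kept without any 1 array. The second PDK3 probe had mean log2 intensities of 7.58 at 8 h and 7.64 at 24 h of crizotinib, so the probes of PDK3 differ. PFKM (0.40), ENO2 (0.44) and ALDOA (0.32) were higher and TPI1 (-0.31) lower. No 8 h crizotinib array was above background for PFKFB2 or PDK4, so only bounds are given, the 24 h mean over the lowest intensity above background. PFKFB2, above background on both 24 h arrays, was called at least 1.25-fold higher (adjusted p = 0.0478), and PDK4, above background on 1 of 2, at least 1.01-fold higher (adjusted p = 0.0188). That array was the only 1 of the 12 with PDK4 above background, so the calls on PDK4 rest mostly on values below it. PFKM lost its call without 24 h replicate 2 (adjusted p up to 0.0544). ALDOA and PFKFB2 lost theirs without any 1 of the 5 arrays, and ENO2, TPI1 and PDK4 without either 24 h array and, in addition, without 8 h replicate 2 or 3 for ENO2, 1 or 2 for TPI1 and 3 for PDK4.

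The change over time differed between the drugs for 3 of the 31 genes, 9.68% against 9.24% of all genes, of which 4.25% were called higher and 5% lower. The share is that of the background. For PFKFB4 the change from 8 h to 24 h was larger under crizotinib than under ciclopirox by 1.56 ± 0.14 (adjusted p = 0.000428), kept without any 1 of the 10 drug arrays. For ALDOC it was larger by 0.77 ± 0.17 (adjusted p = 0.0226), lost without ciclopirox 8 h replicate 2, ciclopirox 24 h replicate 2 or either crizotinib 24 h array (adjusted p up to 0.0839). For PFKM it was larger by 0.49 ± 0.12 (adjusted p = 0.0359), lost without any 1 of the 10 (adjusted p up to 0.115).

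Lists of related genes were read beside the pathway. Of 47 genes for side steps of glycolysis and its other isoenzymes, 23 were measured. After 8 h of ciclopirox 1 was called higher and 2 lower, after 24 h of ciclopirox 3 higher and 0 lower, after 8 h of crizotinib 0 either way by limma (4 at an unadjusted p under 0.05), and after 24 h of crizotinib 6 higher and 3 lower. These are 13%, 13%, 0% and 39.1% of the 23 measured genes, in the same order, against 8.72%, 7.63%, 7.58% and 28.3% of all genes. PCK2, the mitochondrial enzyme that makes phosphoenolpyruvate, rose by 1.74 ± 0.16 (adjusted p = 0.000384) after 24 h of ciclopirox. SLC2A6, a glucose transporter family member, rose by 1.85 ± 0.22 (adjusted p = 0.000259) and TIGAR, a phosphatase that lowers the activator of phosphofructokinase, by 1.23 ± 0.12 (adjusted p = 8.39e-05) after 24 h of crizotinib. Of 21 regulators of glycolytic genes, 12 were measured, with 3 called higher and 0 lower after 8 h of ciclopirox, 3 and 1 after 24 h of ciclopirox, 2 and 0 after 8 h of crizotinib, and 5 and 0 after 24 h of crizotinib. These are 25%, 33.3%, 16.7% and 41.7% of the 12 measured genes, against the same shares of all genes. TXNIP, which restrains glucose uptake, rose by 1.98 ± 0.14 (adjusted p = 0.000104) after 24 h of ciclopirox. MYC, a transcription factor that acts on many of these genes, rose by 0.89 ± 0.094 (adjusted p = 0.000936) after 8 h of ciclopirox. FOXO1 and FOXO3, transcription factors that growth factor signalling holds out of the nucleus, rose by 1.34 ± 0.27 (adjusted p = 0.00539) and 0.65 ± 0.09 (adjusted p = 0.000614) after 24 h of crizotinib.

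The summed intensities of the measured leukocyte and fibroblast markers were highest in the 24 h crizotinib arrays. Among leukocyte markers, CD68 and CD14 were measured, and their summed intensity ranged from 602 to 611 after 24 h of ciclopirox and from 1005 to 1039 after 24 h of crizotinib, against 471 to 476 in control. Both were called higher than in control after 24 h of crizotinib, and neither after 24 h of ciclopirox. PTPRC, CD3E and LYZ gave no probe that passed. Of 8 fibroblast markers 4 were measured, with sums from 202 to 203 after 24 h of ciclopirox and from 236 to 263 after 24 h of crizotinib, against 158 to 178 in control, while COL1A1, COL1A2, COL3A1 and PDGFRA gave none. At 8 h the fibroblast sums ran from 185 to 209 under ciclopirox and from 173 to 199 under crizotinib. Of the 4, LUM and MFAP5 were called higher and COL6A3 lower after 24 h of crizotinib, and MFAP5 was called higher after 24 h of ciclopirox. After 8 h of each drug 1 of the 4 was called higher. The part of these markers in the results was not tested.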

How the data were processed

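Total RNA of A375 cells was amplified, labelled with biotin and read on Illumina bead arrays, per the labels' protocols. GenomeStudio is the tool named in the submitters' processing notes. The authors deposited the mean intensity of each of 47231 probes on every array with its detection p-value, per the file headers, and a second table of normalized intensity for 38220 of those probes, on a linear scale from 11.99 to 38205.26. The sources used here do not say how it was normalized. Its column medians, from 28.3 to 29.6, were already nearly equal, so a shift of all transcripts in a group cannot be seen.

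The log2 of the deposited intensity of 16563 probes (detection p-value under 0.01 on at least 2 arrays) was fitted with limma 3.58.1 in R 4.3.3 by lmFit and eBayes, with 1 mean for each of the 5 groups over all 12 arrays and 7 residual degrees of freedom. Tests were two-sided, with Benjamini-Hochberg adjustment over all those probes and a threshold of 0.05. Genes came from the platform annotation, in which 27002 probes had 1 symbol, 4 had several and 11214 had none; the reference table held 26968 of the named ones. Probes that no array detected set the background at their 99th percentile, 40.32, and 14151 to 14436 kept probes lay above it per array. The value table was taken because its columns are named by sample and an earlier account of these data had reported that the scanner columns conflict with it; the scanner signals (neqc, offset 16) named by the descriptions were an alternative. The script was tested on simulated data. The value table's names and the descriptions were set against each other over 12902 probes detected on all arrays, where the best correlations ran from 0.928 to 0.979.

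Full values are given for members called against control with a log2 difference of at least 0.5; a member not called is named beside its isoenzyme or partner, and at most 4 called genes of each other list are named by size. The members and lists were chosen with earlier results of these data known. Alternatives were another detection filter, quantile normalization again, centring on array medians, log2(value + 16), 1 probe per gene, only the groups compared, a variance trend, a replicate block, the scanner signals with the descriptions' names and leaving out each array of the groups compared.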

Additional observations from a re-analysis of the deposited data

Results flagged for a closer look

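For 3 genes the test of the difference itself, crizotinib minus ciclopirox, called the change between 8 h and 24 h unequal between the drugs. They are 9.68% of the 31 genes, against 9.24% of all genes, a share near the background. PFKFB4 differed by 1.56 ± 0.14 (adjusted p = 0.000428), with a change of 1.08 under crizotinib and -0.48 under ciclopirox. ALDOC differed by 0.77 ± 0.17 (adjusted p = 0.0226), with changes of 1.68 and 0.91 under crizotinib and ciclopirox. PFKM differed by 0.49 ± 0.12 (adjusted p = 0.0359), with changes of 0.40 and -0.091 under crizotinib and ciclopirox. The call on PFKFB4 was kept without any 1 of the 10 drug arrays, the call on ALDOC was lost without 4 of them, and the call on PFKM was lost without any 1. In the fit on scanner signals with the descriptions' names none of the 3 was called. The cause was not tested.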

How the results depend on the processing

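Comparisons with control are named here by drug and time. Of the 65 calls on pathway genes, the fits that kept a probe detected on at least 1 array, centred on array medians, normalized by quantiles again, added 16 before log2, used 1 probe per gene or used a variance trend kept 60, 61, 62, 63, 65 and 60, with no sign turned. Detection on all 12 arrays kept 60 and could not test the other 5, and no detection filter and a fit of only the groups compared each kept 37, with no sign turned; the cause was not tested beyond the larger number of probes or smaller number of arrays in those fits.

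With detection on all 12 arrays the number of all genes called was 1176 for 8 h crizotinib. The number of pathway genes called was 5 for 8 h crizotinib there. The pathway median was 0.11 for 8 h ciclopirox, 0.086 for 24 h ciclopirox and -0.16 for the drugs at 24 h there.

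With no detection filter the number of all genes called was 229 for 8 h ciclopirox, 217 for 24 h ciclopirox, 158 for 8 h crizotinib, 1708 for 24 h crizotinib, 761 for ciclopirox over time, 2461 for crizotinib over time, 261 for the drugs at 8 h, 1141 for the drugs at 24 h and 337 for the difference in change. The number of pathway genes called was 3 for 8 h ciclopirox, 1 for 8 h crizotinib, 4 for ciclopirox over time, 5 for crizotinib over time, 5 for the drugs at 8 h and 1 for the difference in change there. The pathway median was -0.035 for the drugs at 24 h there.

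With only the groups compared the number of all genes called was 352 for 8 h ciclopirox, 59 for 24 h ciclopirox, 64 for 8 h crizotinib, 1907 for 24 h crizotinib, 1045 for ciclopirox over time, 455 for the drugs at 8 h and 1006 for the drugs at 24 h. The number of pathway genes called was 3 for 8 h ciclopirox, 1 for 24 h ciclopirox, 1 for 8 h crizotinib, 5 for ciclopirox over time and 5 for the drugs at 24 h there.

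With a variance trend the number of all genes called was 1539 for 8 h ciclopirox, 1496 for 24 h ciclopirox, 1536 for 8 h crizotinib, 1300 for the drugs at 8 h and 1525 for the difference in change. The number of pathway genes called was 6 for 8 h crizotinib, 13 for 24 h crizotinib and 7 for the difference in change there. For 24 h crizotinib the number of all genes called with the trend is not given here, so the 13 have no share beside them. Without the trend it was 2928 of 10330.

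Replicate numbers are shared between groups, but the deviations of same-numbered arrays correlated from -0.092 to 0.082 over 17 pairs, so no pairing by number was seen. Where both groups hold 2 arrays, the 2 pairs give the same value by construction. The pairs are therefore not all separate checks, and a pairing is not excluded. With the replicate number as a block 51 of the 65 calls were kept. With the replicate block the number of all genes called was 582 for 8 h ciclopirox and 459 for 8 h crizotinib. The number of pathway genes called was 3 for 8 h ciclopirox, 6 for crizotinib over time and 5 for the drugs at 8 h there. For the last 2 of these the number of all genes called with the block is not given here. Without the block it was 3751 for crizotinib over time and 834 for the drugs at 8 h. The pathway median was 0.072 for ciclopirox over time there.

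With the scanner signals named by the descriptions, limma called 143 of all genes for 8 h ciclopirox, 1963 for the drugs at 8 h and 0 in the other 7 comparisons, where 630 to 2303 had an unadjusted p under 0.05; of the pathway genes it called 1, 2 and 0. The pathway median was -0.023 for 24 h ciclopirox, 0.095 for 24 h crizotinib, 0.10 for crizotinib over time, 0.029 for the drugs at 24 h and 0.13 for the difference in change there.

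In that fit, which changed both the signals and the names, 24 values turned their sign, for 8 h ciclopirox SLC2A1 (-0.29) and PDK4 (0.16), for 24 h crizotinib SLC2A1 (0.57) and PFKFB3 (0.10) and for ciclopirox over time SLC2A1 (0.18), HK2 (0.42), ALDOA (-0.17), ALDOC (-0.91) and PDK4 (-0.13). The others were, for crizotinib over time HK2 (0.89), PFKM (-0.006), TPI1 (0.013) and PDK4 (-0.20), for the drugs at 8 h SLC2A1 (0.30), HK2 (0.56), PGAM1 (0.11) and PDK4 (-0.46) and for the drugs at 24 h SLC2A1 (0.67), HK2 (1.03), PFKP (0.13), PFKFB3 (0.53), PGK1 (0.042), PGAM1 (0.39) and LDHA (0.12). The cause was not tested.

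Leaving out each array in turn, all genes called ran from 132 to 473 for 8 h ciclopirox, 250 to 480 for 24 h ciclopirox, 129 to 619 for 8 h crizotinib, 1718 to 2045 for 24 h crizotinib, 946 to 1300 for ciclopirox over time, 2268 to 3456 for crizotinib over time, 365 to 512 for the drugs at 8 h, 1156 to 1691 for the drugs at 24 h and 420 to 887 for the difference in change. For pathway genes called the range was 1 to 3 for 8 h ciclopirox, 4 to 5 for 24 h ciclopirox, 1 to 4 for 8 h crizotinib, 6 to 7 for 24 h crizotinib, 4 to 9 for ciclopirox over time, 4 to 7 for crizotinib over time, 5 to 5 for the drugs at 8 h, 7 to 12 for the drugs at 24 h and 1 to 2 for the difference in change. For the pathway median the range was 0.028 to 0.11 for 8 h ciclopirox, 0.027 to 0.081 for 24 h ciclopirox, -0.10 to -0.063 for 8 h crizotinib, -0.055 to -0.023 for 24 h crizotinib, 0.025 to 0.049 for ciclopirox over time, 0.043 to 0.077 for crizotinib over time, -0.13 to -0.072 for the drugs at 8 h, -0.15 to -0.032 for the drugs at 24 h and 0.0035 to 0.048 for the difference in change.

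Groups of 2 or 3 arrays limit precision, and PDK2, PDK4, PFKFB2 and PDP1 lay near background.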

Other observations

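Genes of the pathways that take sugar phosphates away from glycolysis and burn its pyruvate were called, among the 4 comparisons with control, after 24 h of crizotinib, where 28.3% of all genes were called. Of 12 genes of the pentose phosphate pathway, which makes ribose and NADPH, 10 were measured, and 3 were called higher and 3 lower after 24 h of crizotinib and 0 by limma in the other 3 comparisons with control, where 3, 3 and 1 had an unadjusted p under 0.05 (8 h and 24 h of ciclopirox and 8 h of crizotinib). The 6 calls are 60% of the measured genes. PGD, which yields NADPH, rose by 0.60 ± 0.14 (adjusted p = 0.0104). RBKS, ribokinase, was called at least 1.54-fold higher (adjusted p = 0.000381), a bound because no control array was above background. PRPS1 and PRPS2, which make the activated ribose for nucleotides, were called lower, with differences of -0.73 ± 0.11 (adjusted p = 0.00108) and -0.70 ± 0.10 (adjusted p = 0.000986). Of 17 genes of the citric acid cycle, 13 were measured, with 0 called by limma in the other 3 comparisons (0, 1 and 0 at an unadjusted p under 0.05). After 24 h of crizotinib 2 subunits of isocitrate dehydrogenase, 15.4% of the measured genes, were called higher, IDH3B by 0.52 ± 0.11 (adjusted p = 0.00556) and IDH3G by 0.40 ± 0.13 (adjusted p = 0.0433). Among the isoenzymes of glycolysis, ENO3, the muscle enolase, was called lower after 8 h of ciclopirox, with a difference of -0.76 ± 0.12 (adjusted p = 0.00737).

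Among the lineage markers, SOX10 was called lower after 8 h of both drugs, with differences of -0.59 (adjusted p = 0.00416) for ciclopirox and -0.60 ± 0.083 (adjusted p = 0.00466) for crizotinib, and was not called after 24 h of either. It was the only call at 8 h among the 4 measured melanocytic markers, 25% against 8.72% and 7.58% of all genes. The median difference over the 4 was 0.20 for 8 h of ciclopirox and -0.10 for 8 h of crizotinib. By an unadjusted p of limma under 0.05, 2 were higher and 1 lower for 8 h of ciclopirox, and 0 and 1 for 8 h of crizotinib. Among the fibroblast markers, LUM and MFAP5 rose after 24 h of crizotinib, by 1.0019 (adjusted p = 0.000431) and 1.005 (adjusted p = 0.00159), with 1 of 2 control arrays above background for MFAP5. COL6A3 was called at least 1.09-fold lower there (adjusted p = 0.038), with no crizotinib array and 1 of 2 control arrays above background. CD68 rose there by 1.13 ± 0.096 (adjusted p = 3.55e-05). CD14 was called at least 1.30-fold higher (adjusted p = 0.00795), with both crizotinib arrays and no control array above background.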
